A study of Drosophila melanogaster with 12 samples.

Results

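The midguts of adult control females were compared with the midguts of adult control males of Drosophila melanogaster by RNA sequencing. The comparison uses 6 of the 12 libraries of the series, 3 of each sex, and takes in every gene with enough reads to test. Of the 17558 gene rows in the deposited table of raw read counts, 9686 passed an expression filter with a minimum count of 10 and were tested. Both control groups were labelled with the same genotype, in which mex1-Gal4, a driver active in enterocytes, was combined with UAS-GFP and tub-Gal80ts in a y[1] v[1] / w[*] background. Gal80ts, a temperature-sensitive repressor, kept the driver off during 6 days at 18 degrees C and released it during 4 days at 29 degrees C, so every control midgut was set to express GFP in enterocytes and had been through the temperature shift. The flies were virgins and were dissected at day 10. The labels give both sexes one genotype string, although a male carries a single X chromosome, and they do not say how many guts were pooled or whether the replicates came from separate cultures. The p-values therefore measure the spread between these libraries, which may be technical. The other 6 libraries came from females and males in which the same driver expressed dsxRNAi, an RNA interference construct against dsx; they carry dsxRNAi on the second chromosome and lack UAS-GFP, and they serve here to share the estimate of spread and to set the female to male comparison of the controls beside that in other flies.

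The midgut is the digestive and absorptive part of the fly intestine. It is built of enterocytes, hormone-secreting enteroendocrine cells and the stem cells that renew both, and is wrapped in visceral muscle with nerve endings and tracheae. Flies set their sex cell by cell: Sxl is active in cells with a pair of X chromosomes and leads through tra to the female form of the dsx transcription factor, whereas cells with a single X chromosome make the male form and raise transcription of that X through the dosage compensation complex. Female midguts are larger than male midguts, and the sex of the gut's own cells is known to affect growth, stem cell division and metabolism. Poly-A RNA from whole midguts mixes all these cells, so that fewer cells of a type and less RNA per cell cannot be told apart.

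Total counts ran from 40389954 to 42214921 in control females and from 39898426 to 41794835 in control males, and the median tested gene had 679 counts in a library. Across tested genes the libraries of one sex correlated at 0.977 to 0.980 in control females and 0.988 to 0.990 in control males, and pairs of unlike sex at 0.963 to 0.974 (Pearson's r of log2 levels across genes, which are not independent replicates). The first principal component of the 6 libraries held 47.7% of the variance and separated the sexes; the second held 19.3%, with control female 2 farthest from the rest. The enterocyte gene mex1 had 246, 216 and 202 normalised CPM (read counts scaled to a common library size) in control females and 171, 194 and 203 in control males, so the labelled tissue carried its marker in all 6 libraries.

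One control male library stood apart. Male accessory glands secrete seminal proteins into the ejaculate, are no part of the midgut, and express the Acp genes (accessory gland proteins). The table holds 19 Acp genes, and their summed counts were 6, 4 and 5 in control females 1, 2 and 3, against 7811 in control male 1, 14 in control male 2 and 8 in control male 3. The 6 dsxRNAi libraries had 7 to 17. Of the 19 genes, 15 had at least 10 counts in control male 1, while no other library had more than 5 counts of any of them. The highest were Acp36DE (2L, 18356047 to 18359028) with 1928 counts, a protein known to be needed for sperm storage, Acp32CD (2L, 11015620 to 11016571) with 1731, Acp95EF with 782, Acp26Aa, known to stimulate egg laying, with 623, Acp53Ea with 562, Acp53C14b with 538 and Acp53C14a with 462. The other 8 genes with at least 10 counts were Acp26Ab with 299, Acp76A with 234, Acp63F with 182, Acp33A with 144, Acp98AB with 122, Acp62F with 98, Acp29AB with 77 and Acp53C14c with 29. Control male 1 thus held accessory gland transcripts that the remaining 11 libraries had at a few counts each.

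The Acp genes were not alone in this. In control male 1, 71 genes had at least 50 counts and a level at least 20 times that of the next library (with a floor of 3 counts per library). Together they had 34666 counts there, 0.0829% of the library, against sums of 16 to 50 counts in the other 11 libraries. The rule asks for low counts in those libraries. These low sums, and the zeros given below, therefore follow largely from the selection and are no added evidence. Of the 71 genes, 28 stand on one of the lists of accessory gland and seminal fluid genes, 14 of them named Acp, and 43 on neither. The 8 of highest count outside the Acp names were CG9029 with 5228 counts, CG17097 with 4050, CG31872 with 1958, CG17575 with 1296, Mst57Db with 1190, lectin-46Ca with 1072, lectin-46Cb with 933 and Mst57Da with 877. SP, the sex peptide that switches female behaviour after mating, had 217. None of the 71 lies on X, which carries 15.1% of the annotated gene rows, and 48 of them were at 0 in both other control males. The 17 testis markers overlapped between the sexes, with summed levels of 2.70 to 3.11 CPM in control females against 2.69 to 3.05 CPM in control males. No gene of the 71 passed the expression filter, so none is among the 9686 tested genes, and the contribution of the same source to tested genes was not tested. Under the filter, control male 1 had 47454 counts and still 12788 without the 71 genes, against 5107 to 8010 in each other library. By the same rule control female 2 had 1 gene, CG43673 (X, 15779146 to 15780214), at 26.9 CPM there and no more than 1.23 CPM in any other library. dsxRNAi male 2 also had 1 gene, Cpr49Ae, with 159 counts, and the remaining libraries had none. The main counts below are given with and without control male 1.

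**Figure D1:**
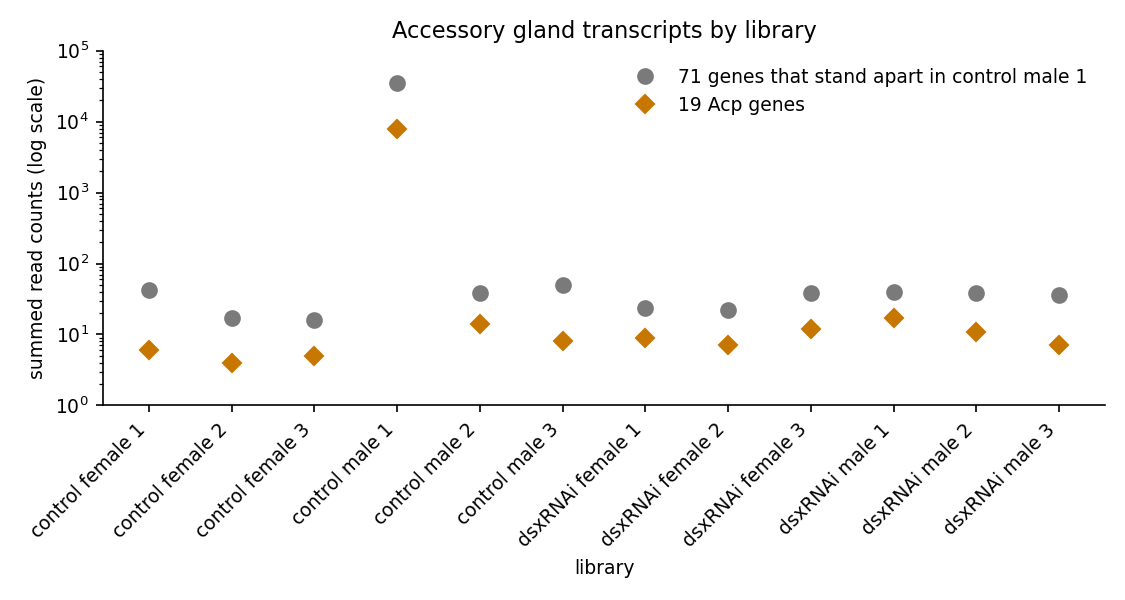
Summed read counts per library (log scale) of the 19 Acp genes (diamonds) and of the 71 genes that stand apart in control male 1 (circles), for the 6 control and 6 dsxRNAi libraries. Control male 1 sits at 7811 and 34666 counts, and no other library exceeds 17 and 50. The 71 genes were chosen for this contrast.

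Between control females and control males 1937 genes were called (edgeR's quasi-likelihood test, Benjamini-Hochberg adjusted p under 0.05 over all tested genes), which is 20% of those tested. In control females 1039 genes were higher (10.7% of those tested) and 898 were lower (9.27%). Most differences were small: 1083 calls, 55.9%, were under 1.5-fold, and the median log2 difference was 0.49 for genes called higher and −0.61 for genes called lower. At least 2-fold were 359 genes (3.71% of those tested), 131 higher and 228 lower, and at least 8-fold were 21 higher and 16 lower. The values of the groups did not overlap for 99% of called genes, against 37.4% of all tested genes. Without control male 1 the calls were 1332, of which 758 were higher and 574 lower, and without control female 3 they were 1325, of which 748 were higher and 577 lower. Under each of the 6 fits that leave out 1 control library, 1076 of the 1937 genes were called in the same direction (55.5%), 630 higher and 446 lower, and no called gene changed sign in any of them. With DESeq2, 2289 genes were called, and 1930 of the 1937 were among them with the same direction.

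**Figure D2:**
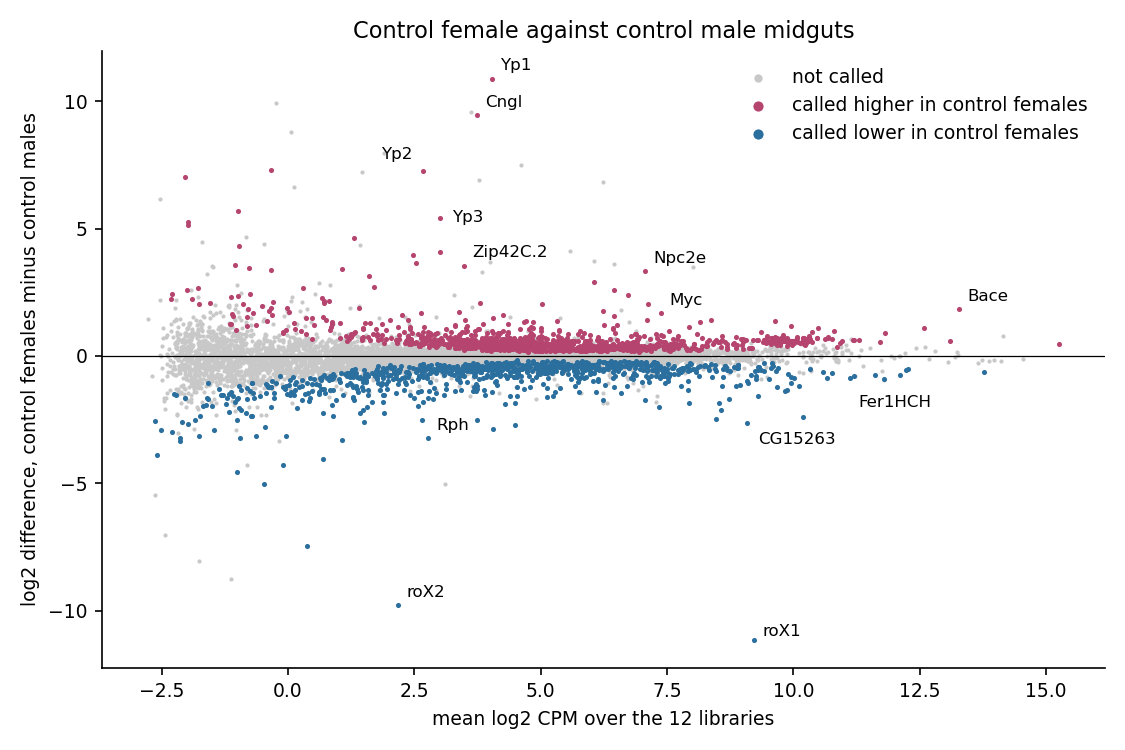
The log2 difference of control females minus control males (vertical) against the mean log2 CPM over the 12 libraries (horizontal) for the 9686 tested genes, with the 1039 genes called higher and the 898 called lower in control females coloured. roX1 lies lowest at −11.14, and Cngl at 9.44 is among the highest points.

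Genes of sex determination and dosage compensation checked the sex labels. roX1 (X, 3857230 to 3862697), whose noncoding transcript guides dosage compensation to the male X, had 0.457, 0.627 and 0.556 CPM in control females against 1272, 1303 and 1141 CPM in control males, a log2 difference of −11.14 ± 0.23 (SE). roX2 (X, 11579065 to 11580432), the other RNA of that complex, had 0, 0 and 1 counts in control females and 363, 468 and 415 counts in control males, a ratio of 1225 in favour of control males with a counting interval of 220 to 48434. Both RNAs separate the 6 libraries by label. msl-2 (2L, 3462218 to 3466112), the subunit whose translation Sxl blocks in females, had 9.68, 12.9 and 9.25 CPM in control females against 31.5, 30.2 and 31.9 CPM in control males (log2 difference −1.56 ± 0.12, adjusted p = 1.03e-05, edgeR). msl-3, another subunit, was lower in control females by a smaller amount, with a log2 difference of −0.50 ± 0.07. These 4 were the calls among 8 dosage compensation genes, all lower in control females.

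Sxl (X, 7074550 to 7098053), the switch gene, had 138, 167 and 148 CPM in control females against 81.9, 82.9 and 81.8 CPM in control males, a log2 difference of 0.88 ± 0.092. tra, whose female splicing Sxl directs, and snf, a splicing protein that works with Sxl, were also higher in control females, with log2 differences of 0.53 ± 0.10 and 0.38 ± 0.065. dsx itself (3R, 7924323 to 7967408) had 18.6, 20.3 and 21.3 CPM in control females against 70.1, 59.1 and 53.2 CPM in control males. Its total level was therefore lower in every control female than in any control male, by a log2 difference of −1.60 ± 0.13 (adjusted p = 1.57e-05, edgeR); the table counts whole genes and does not separate the female and male splice forms. For roX1, roX2, Sxl, tra, msl-2, dsx and the 3 yolk protein genes the exact two-sided permutation test of the CPM gave p = 0.1, the smallest that 3 libraries against 3 allow. Of 12 Y-linked genes on the list, 11 had no count in any control library of either sex. FDY (Y, 3022289 to 3024024) had 18.8, 18.3 and 17.9 CPM in control females against 13.4, 12.5 and 10.7 CPM in control males. Females have no Y chromosome, and FDY is a recent copy of vig2 on 3R, which had 193 ± 10.6 CPM in control females against 129 ± 4.35 CPM in control males (SD, n = 3 each), so the FDY counts are uncertain and do not bear on the labels.

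The yolk protein genes gave some of the largest differences. Yp1, Yp2 and Yp3 encode yolk proteins that fat body and ovarian follicle cells secrete in females, under direct control of dsx in fat body. Yp1 (X, 10053811 to 10055498) had 2464, 1918 and 1936 counts in control females against 0, 3 and 0 counts in control males, a ratio of 2142 with a counting interval of 732 to 10388. Yp2 had 34.9, 12.8 and 13.3 CPM in control females against at most 0.255 CPM in control males (log2 difference 7.26 ± 0.72). Yp3 had 48.5, 16.3 and 13.6 CPM in control females against at most 0.996 CPM in control males (log2 difference 5.41 ± 0.61). Control female 1 had the highest level of all 3. The other 7 fat body markers, of which 4 were tested and none was called, had a summed level of 13.1, 8.65 and 10.4 CPM in control females against 5.88, 3.39 and 4.77 CPM in control males, highest again in control female 1; how much the yolk protein transcripts owe to attached fat body was not tested. Ovary markers were near the background in both sexes, with summed levels of 2.89 to 3.57 CPM in control females against 3.29 to 3.93 CPM in control males.

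Genes on the X chromosome were called higher in control females more often than autosomal genes were. Of 1590 tested X-linked genes 320 were higher (20.1%) and 166 lower (10.4%) in control females, against 681 (8.63%) and 720 (9.13%) of 7890 autosomal genes. The median log2 difference was 0.067 over X-linked genes and −0.018 over autosomal genes, so the typical X-linked gene differed by a few percent. The median over all tested genes was −0.0054. Scaling the libraries on autosomal genes only gave 355 higher and 144 lower on X, and 825 higher and 649 lower on the autosomes. When each control library was left out in turn, 14.9% to 20.4% of X-linked genes and 6.02% to 8.76% of autosomal genes were called higher. Fewer genes were then called lower, 108 to 145 on X and 453 to 674 on the autosomes. On X the lowest counts were 108 without control male 1, 108 without control female 3 and 110 without control male 2. On the autosomes they were 453 without control male 1 and 458 without control female 3. The plot of calls by chromosome arm shows both shares.

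**Figure D3:**
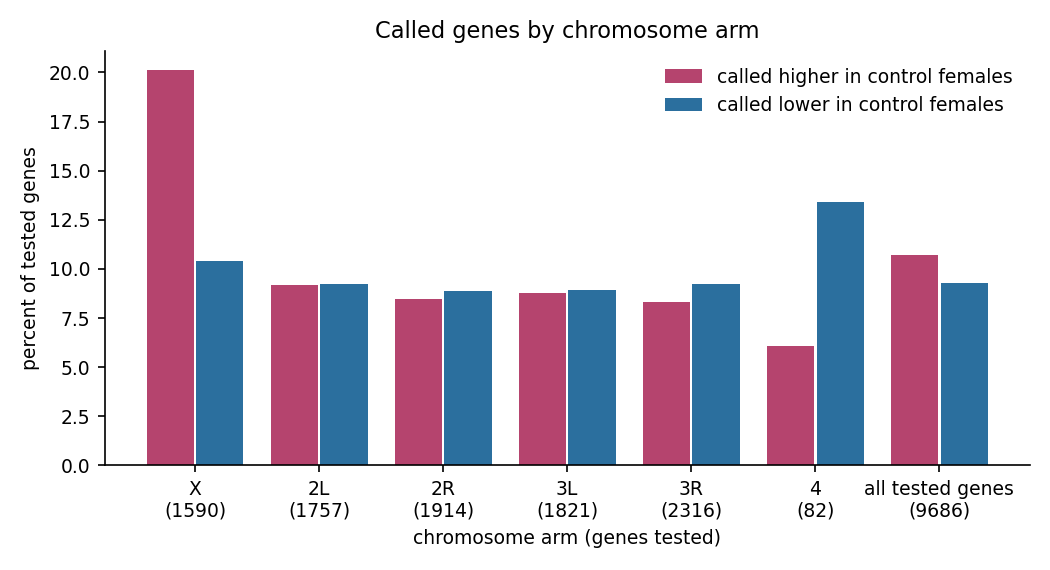
Percent of tested genes called higher (left bar of each pair) and lower (right bar) in control females, by chromosome arm, with the number of tested genes in brackets. X reaches 20.1% higher against 8.33% to 9.16% on the 4 large autosomal arms; chromosome 4 holds 82 tested genes.

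Beyond the sex determination and yolk genes, the largest upward differences, taken among named genes whose log2 CPM averaged at least 1 and whose groups did not overlap, were in an ion channel, a zinc transporter and several genes without a described role. Cngl (X, 15386038 to 15441252), named for its likeness to cyclic nucleotide-gated ion channels, had 21.5, 37.2 and 27.2 CPM in control females, and only 2, 2 and 1 counts in control males. Its level was 741 times higher in control females, with a counting interval of 317 to 2284, and its adjusted p was 2.13e-08 (edgeR). Zip42C.2 (2R, 6718196 to 6719533), a zinc transporter of the ZIP family, had 20.5, 33.8 and 27.8 CPM in control females against 2.87, 2.67 and 1.5 CPM in control males (log2 difference 3.54 ± 0.28). Neto (X, 13445903 to 13527282), an auxiliary protein of glutamate receptors at the neuromuscular junction, had 3.92, 3.76 and 3.68 CPM in control females against 0.324, 0.421 and 0.309 CPM in control males (log2 difference 3.42 ± 0.25). That every control female lay above every control male in these 3 genes was a condition of their selection. CG4563, CG15544 and CG43400 had log2 differences of 4.07 ± 0.44, 3.98 ± 0.34 and 3.65 ± 0.49. CG31077, also among the 10 largest, had 22.4 CPM in control female 2 and 0.392 and 1.34 CPM in control females 1 and 3, and its adjusted p was 0.0934 without control female 2, and 0.132, 0.125 and 0.116 if control male 1, 2 or 3 was left out (edgeR).

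Downward, the largest differences after the roX genes, taken among named genes at the same minimum level, were in Rph, CG15263 and a group of less described genes. Rph (X, 10749077 to 10757666), a rabphilin that binds Rab proteins on secretory vesicles, had 2.11, 2.01 and 2.25 CPM in control females against 20.7, 18.9 and 19.7 CPM in control males (log2 difference −3.22 ± 0.25, adjusted p = 1.51e-05, edgeR). CG15263 (2L, 15285000 to 15286047) was far more abundant, with 164, 293 and 213 CPM in control females against 1293, 1345 and 1506 CPM in control males (log2 difference −2.63 ± 0.24). CG18179 (3L, 9639271 to 9640140) had 22.8, 33 and 24.8 CPM in control females against 158, 140 and 150 CPM in control males (log2 difference −2.48 ± 0.29). Groups that do not overlap were a condition of the selection here too. In each of these the 3 male libraries lay close together. CG14661, CG10514 and CG32195 had log2 differences of −2.61 ± 0.24, −2.52 ± 0.36 and −2.51 ± 0.28. CG34316 and CG16798 were called with log2 differences of −2.71 ± 0.60 and −3.30 ± 0.96, but CG34316 had an adjusted p of 0.0549 without control female 3, and CG16798 lost its call without any one of the 6 libraries, with adjusted p from 0.0549 to 0.104 (edgeR).

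Genes of cytosolic ribosomes and ribosome biogenesis were higher in control females. Of 81 tested cytosolic ribosomal protein genes, 77 were called higher and none lower, against 10.7% and 9.27% of all tested genes, with a median log2 difference of 0.61 (−0.0054 over all tested genes). The same 2 shares are the background for every list below. Their summed level was 76980, 98638 and 95263 CPM in control females against 61198, 60500 and 56666 CPM in control males. RpS21 (2L, 2856070 to 2857029), a small subunit protein, had 426, 512 and 510 CPM in control females against 293, 270 and 273 CPM in control males (log2 difference 0.79 ± 0.10). RpL14 and RpS27 had log2 differences of 0.74 ± 0.10 and 0.68 ± 0.091, and RpS14b one of 0.85 ± 0.10, though RpS14b has a near-identical neighbour, RpS14a, with which reads may be shared. No ribosomal protein gene was 2-fold different. Between 75 and 80 of the 81 were called when any one control library was left out.

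In the list of Myc and ribosome biogenesis genes 25 of 29 were called higher and none lower, against 10.7% and 9.27% of all tested genes. All 29 lay above 0, with a median log2 difference of 0.74. Myc (X, 3373159 to 3391697), the transcription factor that drives ribosome production and cell growth, had 251, 250 and 266 CPM in control females against 83.9, 79.1 and 77.8 CPM in control males. The 3 libraries of each sex lay within a narrow band, 3.18-fold apart in their means, and the log2 difference was 1.67 ± 0.10 (adjusted p = 1.1e-06, edgeR). l(2)k09022 (2L, 6854142 to 6860849), the fly counterpart of a small subunit processome protein, had 35.2, 36.5 and 43.1 CPM in control females against 19.1, 16.8 and 17.3 CPM in control males (log2 difference 1.11 ± 0.12). NHP2, a core protein of the small nucleolar particles that modify ribosomal RNA, and Nopp140, a nucleolar chaperone of those particles, had log2 differences of 0.96 ± 0.12 and 0.82 ± 0.10. The number called higher stayed between 21 and 25 when any one control library was left out.

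Translation factors and charging enzymes differed less. Of 41 initiation and elongation factor genes 23 were called higher and none lower (median 0.25), and leaving out a control library gave 17 to 23. eIF3b (2R, 17536213 to 17539142), a subunit of the factor that brings the small subunit to messenger RNA, had 393, 424 and 440 CPM in control females against 270, 276 and 272 CPM in control males (log2 difference 0.62 ± 0.08). Further subunits of the same factor, eIF3a, eIF3d1 and eIF3l, had log2 differences of 0.58 ± 0.076, 0.50 ± 0.067 and 0.54 ± 0.074. Among 31 aminoacyl-tRNA synthetases, which load amino acids onto transfer RNA, 11 were higher and 1 lower (median 0.13), with TyrRS at a log2 difference of 0.59 ± 0.075. The 11 became 7 without control female 1 or control male 3, 6 without control female 3 or control male 1, and 5 without control male 2. Mitochondrial ribosomal proteins had 6 of 71 genes higher and 1 lower, against 10.7% and 9.27% of all tested genes. Above 0 lay 55 of the 71, with a median of 0.087. The 6 became 3 if control female 3 was left out, 1 for control male 2 and 2 for control male 3. slif (3L, 22881045 to 22893821), an amino acid transporter that feeds TOR signalling, had 118, 185 and 136 CPM in control females against 63.3, 57 and 45.7 CPM in control males (log2 difference 1.40 ± 0.18).

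**Figure D4:**
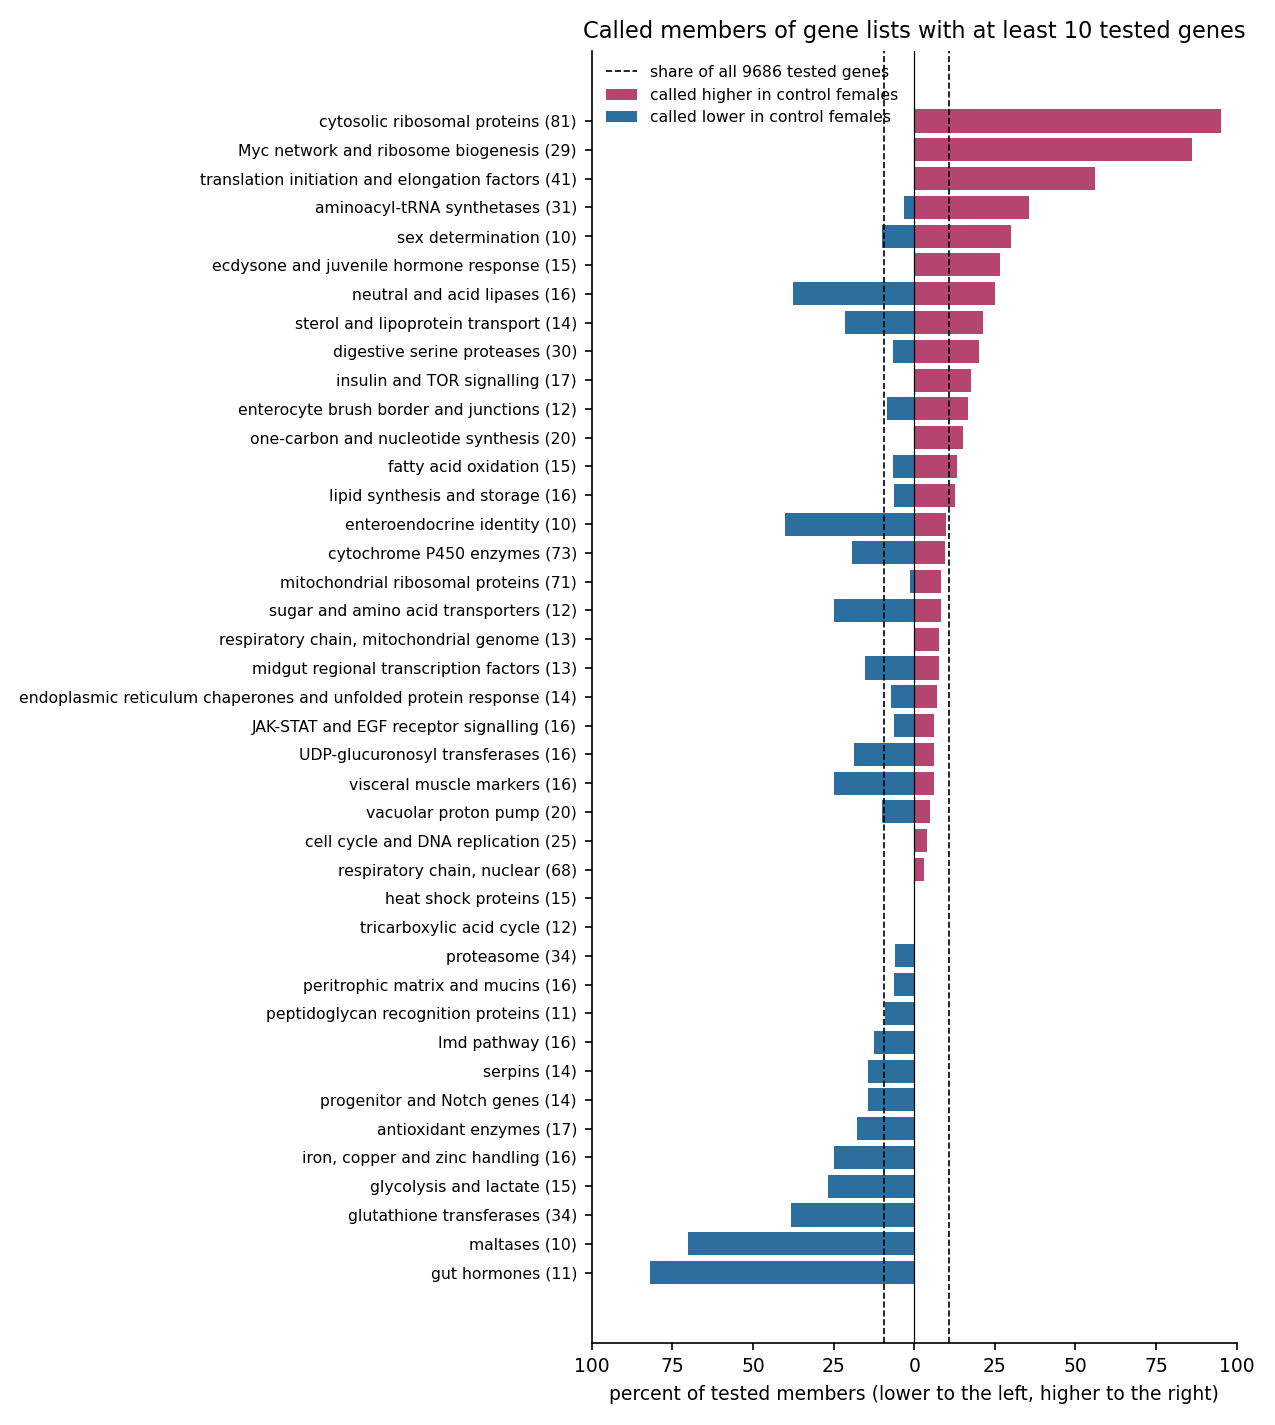
For each gene list with at least 10 tested members, the percent of tested members called higher in control females (bars to the right) and lower (bars to the left), with the number tested in brackets and dashed lines at the shares of all tested genes (10.7% higher, 9.27% lower). Ribosomal proteins and the Myc list reach furthest to the right, gut hormones and maltases furthest to the left.

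Among digestive enzymes most maltases were lower in control females, while the aspartic protease Bace and 6 of 30 serine proteases were higher. Maltases cut maltose and other short sugars, and 7 of 10 were called lower and none higher, with a median log2 difference of −0.72. Among all tested genes 9.27% were called lower and 10.7% higher. Their summed level was 23292, 23994 and 24832 CPM in control females against 38456, 37559 and 36775 CPM in control males. Mal-A3 (2R, 8455909 to 8457892) had 663, 654 and 661 CPM in control females against 1299, 1183 and 1164 CPM in control males (log2 difference −0.88 ± 0.19). Mal-A7 and Mal-A2 had log2 differences of −0.74 ± 0.18 and −0.70 ± 0.11. The Mal-A genes lie side by side on 2R and resemble each other, so reads may be shared among them. Between 5 and 6 maltases were called lower when any one control library was left out. Above 0 lay 1 of the 10, with a log2 difference of 3.23, and 1 was called higher with DESeq2 and without control female 3. The amylases Amy-p and Amy-d, near-identical starch-cutting enzymes, were not called, with log2 differences of −0.20 ± 0.16 and −0.28 ± 0.15 (adjusted p = 0.428 and 0.222, edgeR); of the 5 genes of the amylase and trehalase list none was called by edgeR or DESeq2, 1 had an unadjusted p under 0.05, and 1 was called higher without control female 2.

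All 6 lysosomal alpha-mannosidases lay below 0, with a median of −0.86, and 2 were called lower. LManI (2L, 10452677 to 10457241) had 170, 228 and 177 CPM in control females against 289, 281 and 270 CPM in control males (log2 difference −0.55 ± 0.13). The count of 2 was 1 without any one control library other than control female 2, and 5 without control female 2. In glycolysis, 4 of 15 genes were lower and none higher, against 9.27% and 10.7% of all tested genes. ImpL3, the lactate dehydrogenase (3L, 6259105 to 6262694), had 89.6, 81.6 and 79.6 CPM in control females against 160, 151 and 150 CPM in control males (log2 difference −0.88 ± 0.11, adjusted p = 0.000283, edgeR). Pgi and Hex-A, which act at the first steps of glycolysis, had log2 differences of −0.79 ± 0.19 and −0.51 ± 0.11, and sut2, a sugar transporter, one of −0.80 ± 0.15.

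Bace (2L, 8494893 to 8496307), an aspartic protease and one of the most abundant transcripts of the midgut, had 7842, 12801 and 11419 CPM in control females against 3840, 2906 and 2261 CPM in control males. The log2 difference was 1.83 ± 0.20 (adjusted p = 0.000147, edgeR). Bace was the single tested gene of 10 on the aspartic protease list. Among 30 digestive serine proteases 6 were higher and 2 lower, with a median log2 difference of −0.07. Jon25Biii (2L, 4949941 to 4950767), a chymotrypsin-like enzyme, had 5793, 8353 and 7236 CPM in control females against 3952, 3285 and 2901 CPM in control males (log2 difference 1.08 ± 0.17). Jon66Ci and Jon65Aii had log2 differences of 1.40 ± 0.20 and 1.16 ± 0.15, and Ser8 was lower with −1.01 ± 0.23. Jonah proteases include near-identical copies, between which counts are uncertain. The 2 lower became 1 without control female 3. The lysozyme LysE, likewise one of a cluster of close copies, had a log2 difference of 1.25 ± 0.26.

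Lipid genes did not move as one group. In control females 4 of 16 lipases were higher and 6 lower, and the 6 became 3 without control male 1. CG6283 (3R, 27020238 to 27021378), on the list of neutral and acid lipases, had 500, 604 and 615 CPM in control females against 1357, 1237 and 1292 CPM in control males (log2 difference −1.18 ± 0.18). CG31091 and CG31089, which lie next to each other on 3R, had log2 differences of −1.86 ± 0.28 and −1.87 ± 0.26. In the opposite direction CG6296 had 96.5, 131 and 133 CPM in control females against 73.9, 69.7 and 63.2 CPM in control males (log2 difference 0.80 ± 0.16). Of 16 genes of lipid synthesis and storage 2 were higher and 1 lower. Desat1, the stearoyl-CoA desaturase, had a log2 difference of 0.53 ± 0.11, whereas mdy (2L, 16816660 to 16826964), the enzyme that makes triglyceride from diglyceride, had 5.94, 14.2 and 6.53 CPM in control females against 22.2, 21.8 and 23.4 CPM in control males (log2 difference −1.34 ± 0.30). SREBP, a regulator of lipid synthesis, was the second gene called higher, with a log2 difference of 0.32 ± 0.084 that had adjusted p = 0.0865 without control female 3 and 0.0789 without control male 1 (edgeR).

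Of 14 genes of sterol and lipoprotein transport 3 were called up and 3 down in control females. Npc1b (X, 20934869 to 20939503), needed for sterol absorption in the fly midgut, had 251, 264 and 408 CPM in control females against 110, 117 and 137 CPM in control males (log2 difference 1.35 ± 0.25). Npc2e (3R, 10053332 to 10054348), of a family of sterol-binding proteins, had 180, 162 and 329 CPM in control females against 12.1, 15.6 and 38.6 CPM in control males (log2 difference 3.34 ± 0.67). In both genes control female 3 stood highest, and the groups did not overlap, as for 99% of called genes. LpR1, a lipoprotein receptor, was lower, with 96.9, 122 and 93.3 CPM in control females against 192, 176 and 175 CPM in control males (log2 difference −0.80 ± 0.13). The 3 lower became 1 if any one of 4 libraries was left out (control females 1 and 3, control males 1 and 2). In fatty acid oxidation 2 of 15 genes were higher and 1 lower: srl (3R, 4422483 to 4429335), the fly PGC-1 coactivator of mitochondrial genes, had 35.6, 37.3 and 36.1 CPM in control females against 18.8, 19 and 15.2 CPM in control males (log2 difference 1.04 ± 0.14), Acox57D-d, a peroxisomal acyl-CoA oxidase, had a log2 difference of 0.86 ± 0.18, and Arc42, an acyl-CoA dehydrogenase, one of −0.34 ± 0.077. Of 68 nuclear genes of the respiratory chain 2, COX8 and COX5B, were higher and none lower; 6 were higher without control female 1, 1 without control female 2 or control male 3, and 0 if control female 3, control male 1 or control male 2 was left out. None of 12 tricarboxylic acid cycle genes was called by edgeR, with 1 higher and 1 lower at an unadjusted p under 0.05 and as many with DESeq2, and 3 higher without control female 1.

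Detoxification enzymes leaned the other way. Of 34 glutathione transferases 13 were lower and none higher in control females, against 9.27% and 10.7% of all tested genes. Their median was −0.52, and their summed level was 2404 to 2779 CPM in control females against 3666 to 3776 CPM in control males. GstD5 (3R, 12375733 to 12376572) had 12.8, 11.8 and 10.6 CPM in control females against 30.9, 36.3 and 33.3 CPM in control males (log2 difference −1.52 ± 0.27). GstT3, GstE7 and GstO2 had log2 differences of −0.90 ± 0.13, −0.88 ± 0.16 and −0.58 ± 0.11. The count of 13 was 8 without control female 3 or control male 1 and 7 without control male 3. Cytochrome P450 enzymes were mixed: 14 of 73 were lower and 7 higher, and the 14 became 9 without control female 3 and 8 without control male 1. Cyp4d14 (X, 2173415 to 2175315) had 140, 262 and 140 CPM in control females against 696, 646 and 589 CPM in control males (log2 difference −1.83 ± 0.29), while Cyp4ae1, which lies close by on X (2179007 to 2180998), had 126, 106 and 111 CPM in control females against 67.8, 57.7 and 56.6 CPM in control males (log2 difference 0.91 ± 0.09). These 2 enzymes of one family were thus called in opposite directions. Among 16 UDP-glucuronosyl transferases 3 were lower and 1 higher, with 2 higher without control female 1 or control female 3. Ugt37b1 and Ugt86Dd were lower, with log2 differences of −1.15 ± 0.19 and −0.56 ± 0.12, and Ugt86Dg was higher with 1.40 ± 0.16.

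Transcripts of the gut hormones, made by enteroendocrine cells, were lower in control females. Of 11 hormone genes 9 were called lower and none higher, against 9.27% and 10.7% of all tested genes. All 11 lay below 0, and the median log2 difference was −0.58. AstA (3R, 24760530 to 24765071), which encodes the allatostatin A peptides, had 29.7, 31.4 and 30.4 CPM in control females against 45.1, 45.7 and 54.3 CPM in control males (log2 difference −0.67 ± 0.08, adjusted p = 0.000236, edgeR). Tk, for tachykinin, which acts on lipid metabolism of enterocytes, had 68, 85.6 and 80.8 CPM in control females against 124, 114 and 113 CPM in control males (log2 difference −0.58 ± 0.094). AstC and CCHa1, 2 further peptide hormones, had log2 differences of −0.55 ± 0.09 and −0.73 ± 0.11. In all 4 genes every control female lay below every control male. Groups did not overlap for 99% of all called genes, so this adds little to the calls. Leaving out any one control library gave 8 or 9 calls. pros (3R, 11328480 to 11407627), the transcription factor that marks enteroendocrine cells, had 9.23, 11.4 and 10.3 CPM in control females against 15, 14.4 and 14.1 CPM in control males (log2 difference −0.49 ± 0.09), and 7B2, a chaperone of the prohormone convertase, one of −0.56 ± 0.13. Of 10 enteroendocrine identity genes 4 were lower and 1 higher, with 2 lower without control male 1 or control male 2; the gene called higher, svr, lost its call without control female 3 or control male 2 or 3.

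Markers of nerve and muscle were examined beside the hormones. The 6 neuron markers, several of them shared with enteroendocrine cells, had summed levels of 16.4, 20.1 and 18.6 CPM in control females against 26, 23 and 25 CPM in control males; 3 of the 5 tested, nSyb, elav and Syt1, were called lower, and 1 was if control female 1 or 3 or control male 1 or 3 was left out. Of 16 visceral muscle markers 4 were lower and 1 higher, with summed levels of 2511 to 2982 CPM in control females against 2972 to 3040 CPM in control males, which overlap. The 4 became 2 without any one control library except control female 2, 7 with DESeq2 and 2 with scaling on autosomal genes. up, for troponin T, and Tm2, a tropomyosin, had log2 differences of −0.42 ± 0.091 and −0.38 ± 0.078. bin, a transcription factor of visceral mesoderm, had a log2 difference of −0.95 ± 0.16 (adjusted p = 0.00155, edgeR). Whether the share of enteroendocrine cells, nerve endings or muscle in the tissue had a part in these differences was not tested. Trachea markers had summed levels of 24.4 to 33.5 CPM in control females against 26.6 to 28.3 CPM in control males, which overlap; 1 of 5, serp, was called lower, and not if any one control library other than control female 2 was left out. Malpighian tubule markers overlapped too, at 113 to 122 CPM in control females against 101 to 135 CPM in control males, and none of 5 was called by edgeR or DESeq2 or had an unadjusted p under 0.05.

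Genes of stem cells, the cell cycle and insulin and TOR signalling gave at most 3 calls per list. For all tested genes the shares were 10.7% higher and 9.27% lower. Of 14 progenitor and Notch genes 2 were lower, and insc (2R, 20821262 to 20836028), which orients divisions, had 24.5, 17 and 16.6 CPM in control females against 30.6, 26.9 and 34.6 CPM in control males (log2 difference −0.66 ± 0.15). The other was mira, a cell fate adaptor of dividing neuroblasts, at −0.61 ± 0.17; its adjusted p was 0.0587 without control female 1, and 0.067, 0.0513 and 0.0831 if control male 1, 2 or 3 was left out (edgeR). Of 25 cell cycle genes CycD, a cyclin that promotes growth, was the single call, with a log2 difference of 0.33 ± 0.075. Among 17 genes of insulin and TOR signalling 3 were higher, among them rictor with a log2 difference of 0.30 ± 0.071; the 3 became 5 without control female 1 and 1 without control female 3 or control male 2.

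Steroid and juvenile hormone genes were higher where they were called, in 4 of 15, against 10.7% of all tested genes. gce (X, 15297766 to 15319074), a juvenile hormone receptor, had 109, 122 and 119 CPM in control females against 48.2, 51.1 and 50.8 CPM in control males (log2 difference 1.22 ± 0.10, adjusted p = 1.68e-05, edgeR). Oatp74D (3L, 17487118 to 17511693), the importer of ecdysone into cells, had 8.81, 13.1 and 11.6 CPM in control females against 3.54, 3.74 and 3.18 CPM in control males (log2 difference 1.68 ± 0.16). Cyp18a1, the enzyme that inactivates ecdysone, had a log2 difference of 1.62 ± 0.34 at levels of 0.892 to 1.51 CPM in control females against 0.347 to 0.420 CPM in control males. The groups stood apart in all 3 genes, as they did for 99% of called genes and 37.4% of all tested genes. EcR, the ecdysone receptor, had a log2 difference of 0.42 ± 0.10, with adjusted p = 0.0535 without control female 3 (edgeR).

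Of 16 genes of metal handling 4 were lower and none higher, against 9.27% and 10.7% of all tested genes. Fer1HCH (3R, 30385573 to 30388178) and Fer2LCH (3R, 30387804 to 30390584) encode the heavy and the light chain of ferritin, which stores iron in the midgut. Fer1HCH had 1503, 1754 and 1676 CPM in control females against 3146, 3290 and 2493 CPM in control males (log2 difference −0.86 ± 0.13). Fer2LCH had 1569, 1822 and 1740 CPM in control females against 3048, 3407 and 2474 CPM in control males (log2 difference −0.80 ± 0.13). The 2 chains kept nearly equal levels in each library; they overlap at their ends on opposite strands, and the strand setting of the counting is not given in the sources used here. MtnB, a copper-binding metallothionein, had a log2 difference of −1.33 ± 0.31. lab (3R, 6661427 to 6678590), the homeobox gene that specifies the acid-secreting copper cell region, had 21.2, 24.2 and 23.6 CPM in control females against 17.4, 14.3 and 13 CPM in control males (log2 difference 0.63 ± 0.12). It was the single gene called higher among 13 regional transcription factors, of which bin and exex were called lower; 2 were higher without control female 1, and exex had an adjusted p of at least 0.0531 without any one library except control female 2 (edgeR).

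Lists of immune, proteasome and stress genes had smaller shares of calls than the 20% of all tested genes. Of 16 Imd pathway genes 2 were called lower, which became 1 without any one control library except control female 1, and PGRP-LC, the receptor of that pathway, had a log2 difference of −0.37 ± 0.084. None of 6 antimicrobial peptide genes was called by edgeR or DESeq2, with 1 at an unadjusted p under 0.05 and 1 lower without control male 1. None of 15 heat shock protein genes was called by either tool, with 1 at an unadjusted p under 0.05, although 5 were lower without control female 1. Hsp83 had 820 CPM in control female 1, against 555 and 552 in control females 2 and 3 and 619 to 716 in control males. Of 34 proteasome genes 2 were lower, with a median of −0.08, and 1 or 0 was lower when any one control library was left out. Below 0 lay 32 of the 34. The summed level of the list was 2420 to 2479 CPM in control females against 2563 to 2649 CPM in control males. In the remaining lists most counts of calls changed when 1 control library was left out. The shares of all tested genes to set beside them are 10.7% higher and 9.27% lower. Of 12 sugar and amino acid transporters 1 was higher and 3 were lower, with 1 lower if control female 3 or control male 1 or 3 was left out. Of 20 genes of one-carbon and nucleotide synthesis 3 were higher and none lower, with 5 higher without control female 1, 1 higher if control female 3 or control male 3 was left out, and 2 lower with DESeq2. Of 20 genes of the vacuolar proton pump 1 was higher and 2 were lower, with 5 higher without control female 1, 0 higher if control male 2 or 3 was left out, 3 higher with DESeq2 or autosomal scaling, and 1 lower if control female 3 or any one control male was left out. Of 13 respiratory chain genes of the mitochondrial genome mt:ND2 was called higher, with 3 higher without control female 1 and 0 if control male 1 or 2 was left out. Of 17 antioxidant enzymes 3 were lower and none higher, with 0 lower if control female 1 or 3 was left out 1 for control male 1 or 2, and 1 higher without control female 2. Of 11 peptidoglycan recognition proteins PGRP-LC alone was called, under each of the 6 fits. Of 16 genes of JAK-STAT and EGF receptor signalling 1 was higher and 1 lower, with 0 higher if control female 3 or control male 1 or 2 was left out, 2 higher without control male 3 and 3 lower without control female 1. Of 14 genes of endoplasmic reticulum folding 1 was higher and 1 lower, with 0 higher without control male 1, 2 lower without control male 3 and 4 lower with DESeq2. Of 12 genes of brush border and junctions 2 were higher and 1 was lower, with 1 higher if control female 3 or control male 1 was left out and 0 lower for control female 1 or 3 or control male 1 or 2. Of 16 genes of mucins and peritrophic matrix 1 was lower, with 2 if control female 2 or 3 or control male 3 was left out, and of 14 serpins 2 were lower, with 1 without control female 3. Of 5 odorant-binding proteins 2 were higher, with 1 under DESeq2 and without any one control library except control female 2, and of 5 hemocyte markers 1 was higher, with 0 if control female 2 or 3 or control male 1 or 2 was left out. ras, an enzyme of guanine nucleotide synthesis, had 53.4, 45.5 and 59 CPM in control females against 35.9, 34.8 and 34.1 CPM in control males (log2 difference 0.59 ± 0.10). Sec61gamma, a subunit of the channel through which proteins enter the endoplasmic reticulum, had 52.1, 51.1 and 41.4 CPM in control females against 87.8, 83.3 and 63.6 CPM in control males (log2 difference −0.70 ± 0.13).

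**Figure D5:**
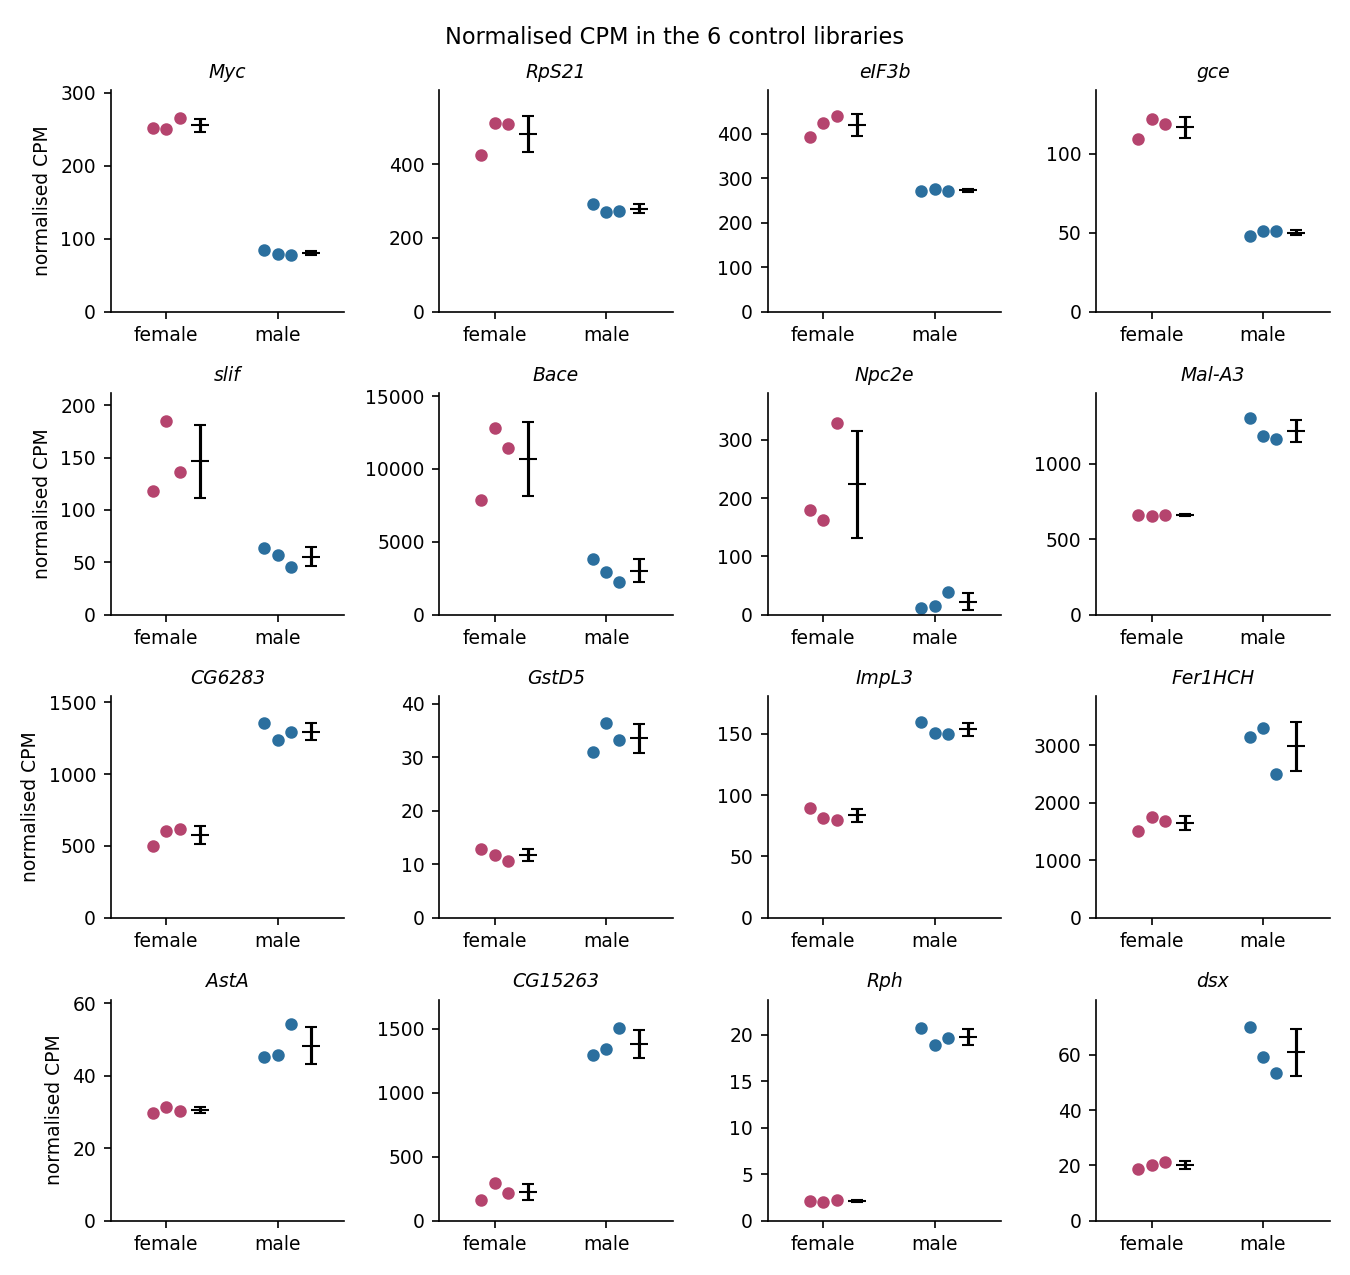
Normalised CPM of 16 genes in each of the 3 control female libraries (left) and the 3 control male libraries (right), from 0 on each vertical axis, with the mean and SD of the 3 libraries as the black bar. In each panel the groups do not overlap, as for 99% of all called genes, and control female 3 stands apart for Npc2e.

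The same comparison of sexes could be made in the 6 dsxRNAi libraries, which share no library with the controls. There 1436 genes were called between females and males (14.8% of those tested, 7.76% higher and 7.06% lower in females). Of the 1937 genes called in controls, 730 were also called there in the same direction, 37.7% of the control calls and 50.8% of the dsxRNAi calls, and 15 were called in the opposite direction. The share was 273 of 486 for X-linked control calls (56.2%) and 441 of 1401 for autosomal ones (31.5%). The shares of all tested X-linked and autosomal genes called under dsxRNAi were not counted. Whether this gap goes beyond theirs was not tested. Among 359 control calls of at least 2-fold, 155 were called again in the same direction (43.2%). Cngl and Neto kept their size, with log2 differences of 9.27 and 3.52 under dsxRNAi, as did Sxl with 1.08 and msl-2 with −1.62. Myc had a log2 difference of 1.08 under dsxRNAi (adjusted p = 6.66e-05, edgeR), with 218, 229 and 237 CPM in dsxRNAi females and 122, 90.7 and 111 CPM in dsxRNAi males. Of the 81 ribosomal protein genes 3 were called higher in dsxRNAi females (median 0.21); the others were not called there. The difference between the sex differences was called for 1 of those 81 genes and for none of the 29 Myc list genes by edgeR, with 65 and 17 at an unadjusted p under 0.05, which 1387 of all 9686 tested genes had; for Myc itself it was −0.59 with adjusted p = 0.0704 (edgeR).

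Across all genes the sex difference under dsxRNAi differed from that in controls for 78 genes, 0.805% of those tested, by a test of the difference itself (the interaction term of the edgeR fit). Of the 78, 61 were among the control calls, 41 higher and 20 lower in control females. The number depended on single libraries. Leaving out control female 1 gave 119, control female 3 gave 35, and control males 1, 2 and 3 gave 45, 34 and 36. Leaving out dsxRNAi females 1 and 3 gave 44 and 33, and dsxRNAi males 1 and 2 gave 45 and 127. DESeq2 called 341. Bace showed the difference at high levels: in dsxRNAi flies it had 10748, 11301 and 10446 CPM in females and 15824, 15576 and 14635 CPM in males, a log2 difference of −0.50 (adjusted p = 0.107, edgeR) against 1.83 in controls. CG15263 had 254, 268 and 239 CPM in dsxRNAi females and 282, 448 and 249 CPM in dsxRNAi males, where the groups overlap. For both genes the dsxRNAi males lay outside the range of the control males, on the side of the control females. slif (interaction −1.40, adjusted p = 0.0333, edgeR) did likewise, with 157, 210 and 155 CPM in dsxRNAi females and 185, 152 and 183 CPM in dsxRNAi males (log2 difference 0.0026). CG18179 went further apart, with 31.8, 56 and 44.3 CPM in dsxRNAi females and 862, 1748 and 964 CPM in dsxRNAi males (log2 difference −4.76; interaction −2.28, adjusted p = 0.0327, edgeR). The controls and dsxRNAi flies differ in transgenes as well as in dsx, so an effect of dsx and one of the background cannot be told apart.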

How the data were processed

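RNA of whole midguts was made into poly-A, directional libraries and sequenced as read pairs, per the labels' protocols. The authors deposited a table of raw read counts per gene for 12 libraries, per the submitters' processing notes with TopHat2 2.0.11, dm6 and featureCounts; the sources used here give no strand setting, annotation release or read filter. Of 17558 rows, 171 without a symbol (2.17% of counts) kept their identifiers and were not named. Coordinates are dm6, from an Ensembl annotation holding 17252 of the row identifiers.

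Counts were analysed in R 4.3.3 with edgeR 4.0.16: expression filter with a minimum count of 10, TMM scaling, and a robust quasi-likelihood fit of 4 group means to all 12 libraries. The contrast was control females minus control males, with Benjamini-Hochberg adjustment over the 9686 tested genes and calls at adjusted p under 0.05. Adjusted p-values in the text come from this edgeR test unless DESeq2 1.42.0 is named. Errors of log2 differences are standard errors of the fit. Levels are TMM-scaled CPM. Counting intervals are exact at 95% and cover counting error only. In simulated data for this comparison (9686 genes, 200 changed), a log2 difference of 0.5 was recovered in 36.8% of changed genes, 1 in 72.7% and 2 in 90.9%. Each share rests on 66 to 68 genes. The real comparison had 1937 calls, so the adjusted threshold was stricter in the simulation and the shares may differ for the real data.

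The comparison, the 60 gene lists and the rule for named genes were chosen with earlier results of these data known, so no list is independent evidence of its direction. The rule takes the sex label genes, the 10 largest differences each way at an average log2 CPM of at least 1 with groups that do not overlap, up to 4 called members of each list by smallest p (for lists without a call up to 2 of highest level), the stock markers, the Acp genes, the genes that stand apart in control male 1 with the 8 of highest count, and 6 genes of the interaction. vig2, SP, CG43673, Cpr49Ae and the genes so marked elsewhere were added after their values were seen. Scaling, test, filter, libraries in the fit, thresholds, a replicate block and leaving out each library were varied. The list counts and arms under autosomal scaling, and the arms without each library, were chosen after seeing the data. Python 3.11.15 and matplotlib 3.10.9 made the plots. Promoter sequences were not used here.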

Additional observations from a re-analysis of the deposited data

Results flagged for a closer look

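Control male 1 held 7811 counts of accessory gland (Acp) genes and 34666 counts of the 71 genes that stand apart there, outside the genes that could be tested. The other 11 libraries had at most 17 and 50. The 71 genes were chosen for low counts in those libraries, so the contrast of their sums follows from that choice.

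For 6 genes the female to male difference under dsxRNAi differed from that in controls by a test of the difference itself (edgeR's interaction term, adjusted over all tested genes). The change in the log2 difference, dsxRNAi minus controls, was −2.33 for Bace (adjusted p = 0.00308), −3.11 for Zip42C.2 (0.00311), −1.42 for mt:ND2, a respiratory chain subunit encoded in the mitochondrial genome (0.00311), and −4.82 for CG4563 (0.00386). It was 2.27 for CG15263 (0.00862) and −1.24 for CG6296 (0.0312). In mt:ND2 the sign turned, with 30.3, 41.3 and 32 CPM in control females against 25, 23.8 and 24.8 CPM in control males, but 23.7, 26.3 and 21.3 CPM in dsxRNAi females and 52.2, 44.2 and 38.8 CPM in dsxRNAi males. Leaving out any one of the 12 libraries kept the first 5 under 0.05, with adjusted p of at most 0.0376, whereas CG6296 was lost in 7 of the 12 fits, without control female 3, any one control male, dsxRNAi female 1, dsxRNAi female 3 or dsxRNAi male 3, with adjusted p up to 0.0943.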

How the results depend on the processing

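The 1937 calls between control females and control males (1039 higher, 898 lower) were within 1.5 times under other scalings (1921 with relative log expression, 2028 on autosomal genes), without an expression filter (1741), with a minimum count of 50 (1902), with only the 6 control libraries (1778), without robust dispersion (1982) and with DESeq2 (2289). An adjusted p under 0.01 left 1018 calls, 603 higher and 415 lower, and an added log2 difference of at least 1 left 359, 131 higher and 228 lower. Leaving out 1 control library gave 1325 to 1890 calls, with 748 to 1054 higher and 574 to 836 lower. The 78 calls of the interaction became 341 with DESeq2, 22 at 0.01, 48 with the added log2 difference, and 33 to 127 with 1 library left out; the cause was not tested. Whether the replicate numbers pair the samples is not known. Deviations of like-numbered females and males correlated at −0.288, 0.104 and 0.023, and those of unlike-numbered ones at −0.227 to 0.22. With 3 libraries per group these values cannot decide it, and the main fit had no block. With the replicate block there were 1994 calls and 67 for the interaction, and the interaction of CG6296 had adjusted p = 0.0646 (edgeR). At this depth 875 tested genes had a median under 20 counts in the control libraries, and differences of low genes are less certain.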

Other observations

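Among the 15 genes called in opposite directions between the sexes in controls and under dsxRNAi, 13 also passed the test of the difference between the comparisons. That test uses the same comparisons, so the choice of these genes largely fixed its outcome. Of the 13, 5 are given as values, named after those were seen. NLaz (2L, 1359837 to 1361821), a lipocalin that acts in stress and metabolic signalling, had 153, 197 and 187 CPM in control females against 80.5, 102 and 88 CPM in control males, but 149, 160 and 164 CPM in dsxRNAi females and 268, 413 and 256 CPM in dsxRNAi males (interaction −1.97, adjusted p = 0.00308, edgeR). LRP1, a relative of the lipoprotein receptors, had 8.68, 11.4 and 9.15 CPM in control females against 14.7, 13.1 and 15.5 CPM in control males, but 9.61, 9.92 and 10.1 CPM in dsxRNAi females and 5.50, 6.72 and 5.94 CPM in dsxRNAi males (interaction 1.27, adjusted p = 0.00311, edgeR). In both genes control and dsxRNAi females overlapped, and control and dsxRNAi males did not. CG15170, CG17192 and fu12 had interaction values of −1.07, −1.93 and −2.0.

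Control female 2 held the highest level of 2 genes of the male ejaculatory tract, also named after their values were seen. Est-6, which encodes an esterase of the ejaculatory duct, had 1.78, 5.59 and 0.765 CPM in control females against 0.533, 0.585 and 0.685 CPM in control males. It was called higher in control females (adjusted p = 0.0481, edgeR). Under dsxRNAi it was called lower in females (adjusted p = 0.0411, edgeR), with 3.24, 1.49 and 4.52 CPM in dsxRNAi males. EbpIII, an ejaculatory bulb protein, had 8.70, 25.5 and 8.64 CPM in control females against 8.04, 5.31 and 7.80 CPM in control males, and was not called. EbpIII made up most of the 33.1 CPM that the 49 seminal and ejaculatory genes outside the Acp names summed to in control female 2. Among genes of cell junctions and mucus, l(2)gl (2L, 9839 to 21376), a polarity gene, had 390, 397 and 422 CPM in control females against 244, 237 and 263 CPM in control males (log2 difference 0.70 ± 0.12), and Muc55B, a mucin, had 28.6, 27.9 and 18.5 CPM in control females against 49.4, 60.6 and 116 CPM in control males (log2 difference −1.59 ± 0.33). Of the stock marker genes, w (log2 difference −0.58 ± 0.15, adjusted p = 0.0149, edgeR, over 0.05 without control female 2 or 3 or control male 2 or 3) had 10.1, 6.50 and 8.06 CPM in control females against 11.2, 12.7 and 13 CPM in control males.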
